A study of Mus musculus with 40 samples.

Results

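Cytochrome P450 enzymes and UDP-glucuronosyltransferases were followed in sorted cells of mouse colon tumors, healthy colon and blood. The members were all protein-coding genes of the P450 families 1 to 4 (symbols such as Cyp2c55) and of the glucuronosyltransferase subfamilies Ugt1a, Ugt2a and Ugt2b, chosen by symbol alone. There were 100 of them, 81 P450 and 19 glucuronosyltransferase genes, among 45706 genes in the tables, and a further 16 genes with matching symbols were left out because they are annotated as pseudogenes or other non-coding types. RNA-seq was carried out on 40 libraries in 10 groups of 4. Tumor-bearing mice carried Cdx2CreERT2 - Apc fl/fl, in which the Cdx2 promoter drives an inducible recombinase, and received a single intraperitoneal injection of 25 mg/kg Tamoxifen at 8 to 10 weeks of age. Their strain is labeled C57Bl6/Sv129, with the number counting up from library to library. Healthy mice, whose age is not given in the sources used here, were C57Bl6 without transgene or agent, so that tumor, strain, transgene and Tamoxifen cannot be told apart in any comparison of tumor-bearing with healthy animals. The colon groups were CD45- EpCAM+ epithelial cells and CD45- EpCAM- stromal cells from healthy colon or tumors, and the myeloid groups were Ly6G+ neutrophils and Ly6C-high monocytes from tumors, from the blood of tumor-bearing mice and from the blood of healthy mice. By their names some of the blood libraries hold pooled animals, and some mice gave libraries to several groups, among them healthy epithelial library 4 and healthy stromal library 4, which carry the same name.

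P450 enzymes are heme proteins that insert oxygen into lipophilic substrates, among them drugs, plant compounds, steroids, bile acids and arachidonic acid. Glucuronosyltransferases then attach glucuronic acid to such products, which are carried out of the cell by export pumps. Both classes are best known from the liver, but the lining of the gut, which meets dietary compounds first, makes its own set. Mature surface cells of the epithelium are the main site of this expression.

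Depth ran from 10717873 to 38002939 counts per library with a median of 16338416. Several colon libraries stood apart from their groups. Healthy epithelial library 4 held 83.9% of its counts on the mitochondrial genome, against 48.6% to 67.4% in the others, and its summed level of 10 epithelial markers was 79.2 RPKM (a level of reads scaled by transcript length and library, which can be compared between genes) against 269.6 to 414.1. Tumor stromal libraries 1 and 2 carried epithelial sums of 230.7 and 132.6 RPKM, in the range of the tumor epithelial libraries (147.8 to 372.4), and libraries 3 and 4 had neutrophil sums of 1508 and 511 RPKM and erythroid sums of 4491 and 1282 RPKM. All 4 tumor stromal libraries had fibroblast sums of only 6.3 to 24.3 RPKM, against 358 to 2032 in healthy stroma. Smooth muscle sums were 3.1 to 5.3 against 19.0 to 97.9 RPKM. Endothelial sums were 4.36 and 3.69 RPKM in tumor libraries 1 and 2 and 108 and 117 RPKM in libraries 3 and 4, against 13.3 to 117 in healthy stroma. The label stromal was thus poorly borne out by fibroblast and smooth muscle markers in the tumors, whereas endothelial markers bore it out in libraries 3 and 4. Healthy stromal library 4 had the highest fibroblast sum and also the highest epithelial sum of its group (21.1 RPKM against 4.6 to 10.4). Apc was read at 5.97 to 6.51 RPKM in tumor epithelial libraries and at 0.343 to 3.34 RPKM in healthy ones, which does not check the deletion because the value spans the whole gene.

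To see where these genes were read at all, their levels were compared over the 10 groups. Of the 100 members, 35 reached a mean of 1 RPKM in at least 1 group, 65 stayed under it everywhere, 32 never passed a group mean of 0.1 RPKM and 10 had at most 3 counts in every library. Among the 35, the highest mean was in healthy epithelial cells for 19 members, in blood monocytes of healthy mice for 8, in healthy stroma for 3 and in blood neutrophils of healthy mice for 3, whereas tumor neutrophils and blood monocytes of tumor-bearing mice each led for 1. The subfamilies Cyp1a, Cyp2a, Cyp2b and Cyp4a, which hold much of the classical liver repertoire, had no member at 1 RPKM in any group. Hepatocyte marker sums were at most 8.63 RPKM in the colon libraries.

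**Figure D1:**
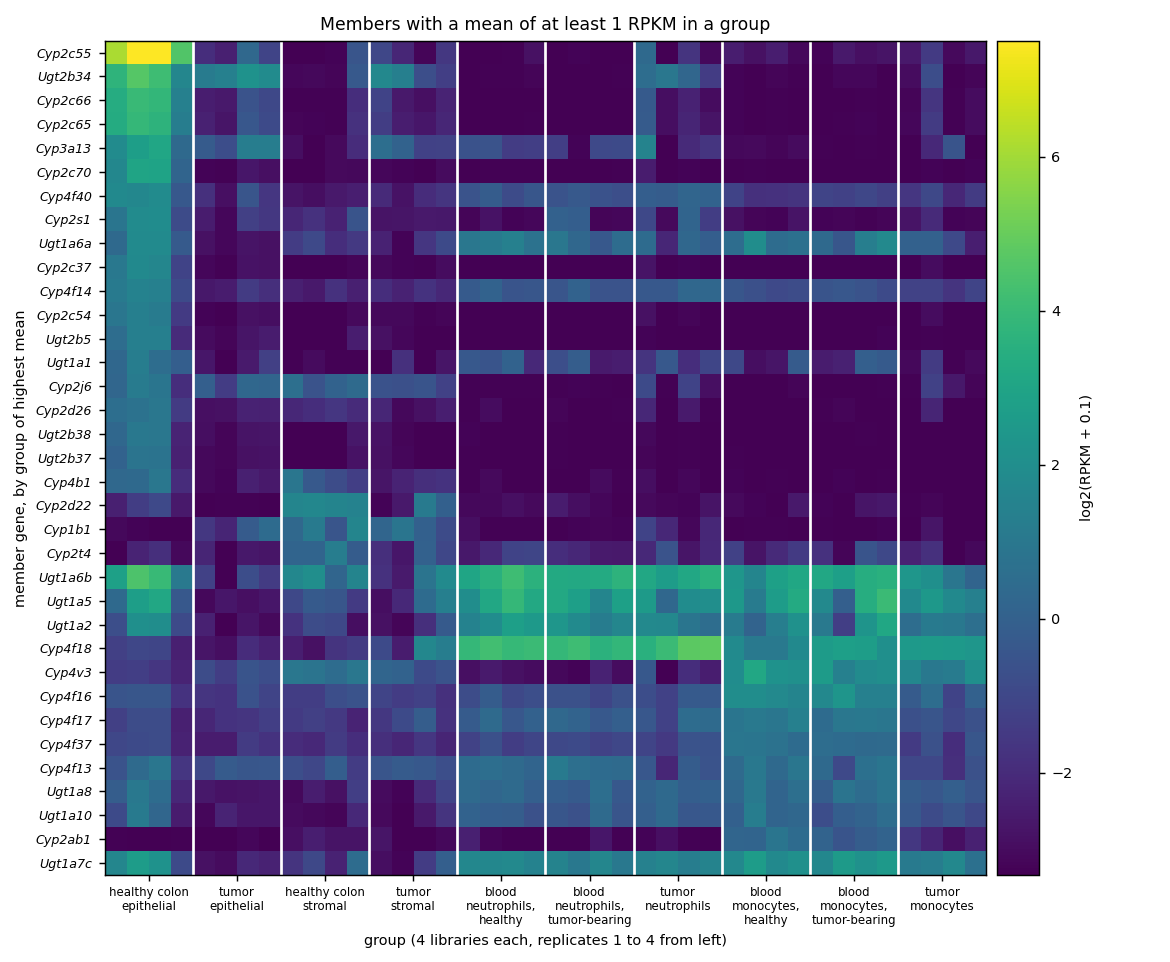
Heat map of log2(RPKM + 0.1) for the 35 members with a mean of at least 1 RPKM in a group (rows) in all 40 libraries (columns, 4 per group). The upper 19 rows are members whose mean was highest in healthy epithelial cells, led by Cyp2c55. Below them come the 3 members highest in healthy stroma, led by Cyp2d22. The remaining rows are members highest in blood or tumor myeloid cells, among them Ugt1a6b, Cyp4f18 and Cyp4v3.

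The P450 transcripts of healthy epithelial cells were dominated by the Cyp2c subfamily. Summed over the 81 P450 genes, healthy epithelial libraries ranged from 36.5 to 266 RPKM (median 190), and Cyp2c55, which oxidizes arachidonic and linoleic acid, made up 66.4% of the mean sum. The members Cyp2c55, Cyp2c65 and Cyp2c66 lie side by side on chromosome 19 in the GRCm38 build (positions 39007019 to 39042693, 39061015 to 39093944 and 39113898 to 39187072), all on the plus strand. Their promoters are shown because these neighbors were the 3 most abundant P450 genes of healthy epithelial cells and all fell in tumors. The sequences are the 150 bases before the RefSeq start site (GRCm38.p6 table), 5′ to 3′, with a match to the HNF4-type motif CAAAGTCCA in capitals where there is one.
Cyp2c55 (chr19:39006869-39007018, plus strand): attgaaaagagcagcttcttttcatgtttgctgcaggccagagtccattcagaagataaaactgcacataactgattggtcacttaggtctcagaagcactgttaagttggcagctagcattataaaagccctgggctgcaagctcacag
Cyp2c65 (chr19:39060856-39061005, plus strand): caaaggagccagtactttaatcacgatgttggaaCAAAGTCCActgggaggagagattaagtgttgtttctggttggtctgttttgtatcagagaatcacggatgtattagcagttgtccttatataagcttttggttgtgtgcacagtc
Cyp2c66 (chr19:39113748-39113897, plus strand): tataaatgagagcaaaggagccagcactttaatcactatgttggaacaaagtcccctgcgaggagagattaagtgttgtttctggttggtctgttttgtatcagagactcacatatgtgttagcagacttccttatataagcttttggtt

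The Cyp2c65 and Cyp2c66 windows were identical at 127 of 138 aligned bases (92%), whereas only Cyp2c65 held the motif. On either strand the motif stood in 10 of 91 member windows (11%; Cyp2c40, Cyp2c65, Cyp2c67 to Cyp2c70, Cyp3a11, Cyp3a16 and the copies Cyp3a41a and Cyp3a41b, many of them related in sequence) and in 0.271% of all 32851 promoter windows of that length. The HNF1 half-site GTTAAT was found in 9.89% of member windows and 3.71% of all windows, the aryl hydrocarbon receptor core GCGTG in 13.2% and 20.5%, and the CDX-type TTTATGG in 1.1% and 1.35%. These are letter matches in 84 members that have an entry, and binding was not measured.

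In tumor epithelial cells, most of the P450 and glucuronosyltransferase genes that could be tested were lower than in healthy colon epithelium. Of the 100 members, 53 had enough counts to be tested and 37 passed the threshold (edgeR quasi-likelihood test, Benjamini-Hochberg adjusted p under 0.05 over all genes tested and an absolute log2 fold change above 1.5), 36 of them lower and 1 higher in tumors. Over all 16085 genes tested, 15.4% passed, with 7.88% lower and 7.52% higher. The median log2 fold change was -3.61 over the members tested and -0.01 over all genes. Part of this count was set by the filter on low counts, because 28 members passed it through healthy libraries alone, and a gene kept for its level in healthy cells could hardly rise. Enough counts in both groups alone were found for 11 members, of which 6 were lower and none higher. The share over all genes with enough counts in both groups is not given, so this count has no matching background. In RPKM the groups did not overlap for 24 of the 36 lower members, where 30.5% of the 1267 genes called lower did not. The 12 others overlapped through healthy epithelial library 4. When counts were scaled to those outside the mitochondrial genome all 37 members that passed were separated, as were 85.2% of all 2476 genes called. Without that library 43 members passed.

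The steepest fall was that of Cyp2c55. Its level was 69.3, 182, 178 and 23.4 RPKM in the healthy libraries and 0.171, 0.093, 1.18 and 0.362 RPKM in the tumor libraries, so that even the lowest healthy library exceeded the highest tumor library. Mean levels were 113 ± 79.4 and 0.451 ± 0.499 RPKM (SD, n = 4 each), a 251-fold difference (543-fold without tumor library 3) and a log2 fold change of -8.54 (SE 0.69, edgeR adjusted p = 3.41e-05). Cyp2c70 (19:40153353 to 40187333, minus strand), which makes muricholic bile acids in the mouse liver, was read at 3.10, 7.84, 7.76 and 1.01 RPKM in healthy cells and at 0.0573 RPKM or less in tumors, a log2 fold change of -7.82 (SE 0.48). For Cyp2c37 the healthy libraries gave 1.94, 3.41, 3.05 and 0.357 RPKM and the tumor libraries 0.0153, 0.00339, 0.0449 and 0.0388 RPKM, a log2 fold change of -6.75 (SE 0.60). Cyp2c54 went from a mean of 1.67 ± 0.97 to 0.0206 ± 0.0182 RPKM (log2 fold change -6.65, SE 0.65).

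Cyp2c65 and Cyp2c66, whose transcripts share 20.2% and 19.5% of their 50-base windows with each other, moved together. Cyp2c65 was at 9.93, 14.9, 12.9 and 2.28 RPKM in healthy libraries and at 0.0971, 0.0537, 0.676 and 0.443 RPKM in tumors, and Cyp2c66 at 10.2, 16.3, 14.2 and 2.50 RPKM against 0.0831, 0.0693, 0.586 and 0.411 RPKM. Neither gene overlapped between groups, and the log2 fold changes were -5.56 (SE 0.58) and -5.80 (SE 0.54). Because reads of the shared stretches could be assigned to either gene, the counts of both were also summed, which gave -5.71 (SE 0.58). Cyp2c29, an arachidonic acid epoxygenase, fell by 6.18 on the log2 scale from a mean of 0.589 RPKM. In all, 11 of the 15 Cyp2c genes were lower, 1 was tested without passing (Cyp2c69) and 3 had too few counts.

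**Figure D2:**
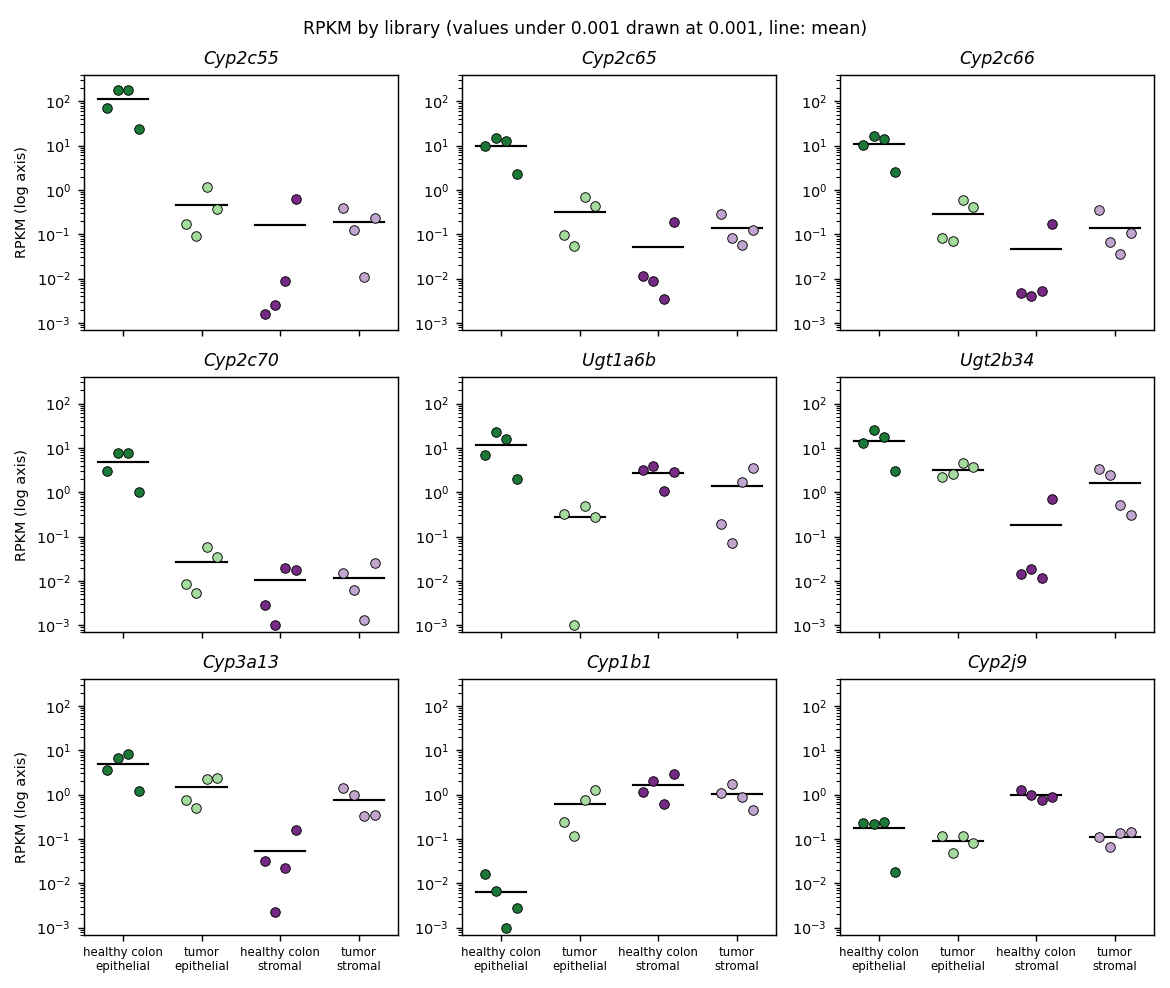
RPKM (log axis) of 9 members in each library of healthy and tumor epithelial and stromal cells, with points for the 4 libraries of a group and a line for their mean. The Cyp2c genes are separated between healthy and tumor epithelial cells, Cyp1b1 is the sole member called higher in tumor epithelial cells, and Cyp2j9 is the sole member called in stroma.

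Outside Cyp2c some P450 subfamilies fell and others did not pass the test. Cyp3a13 (5:137892932 to 137921619), the only Cyp3a gene tested, was at 3.63, 6.67, 8.46 and 1.22 RPKM in healthy and 0.765, 0.493, 2.29 and 2.34 RPKM in tumor epithelial cells, a log2 fold change of -2.32 (SE 0.40). It was the most abundant P450 gene of the tumor epithelial libraries, at 15.8% of their P450 sum, which was 4.39 to 14.0 RPKM. All 3 Cyp2d genes tested were lower, and for Cyp2d22, a mouse counterpart of the human drug-metabolizing CYP2D6, every tumor library had at most 3 counts, so that its level was at least 14.6-fold lower. Cyp2s1 fell by 4.44 on the log2 scale, and the fatty acid hydroxylase Cyp4b1 fell from a mean of 1.09 to 0.0464 RPKM. Within Cyp4f, which inactivates leukotrienes and other fatty acids by oxidation, 5 of 8 genes tested were lower, from Cyp4f14 (-4.26) to Cyp4f37 (-1.83). None of the 8 Cyp2j genes passed, and their log2 fold changes lay between -1.33 and -0.81. A count of 0 among 8 is near the 15.4% share over all genes. The fold change of Cyp2r1, which activates vitamin D in the liver, was 0.16 (SE 1.02), and that of the fatty acid hydroxylase Cyp4v3 was 0.24 (SE 0.39), neither past the threshold.

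Glucuronosyltransferases fell with the P450 genes. Their summed level was 9.23 to 85.1 RPKM in healthy epithelial libraries (median 51.6) and 3.14 to 6.20 RPKM in tumors (median 4.29). All 7 Ugt2b genes passed as lower, as did the only Ugt2a gene with enough counts, Ugt2a3. Ugt2b34 (5:86889767 to 86906937) was the most abundant of them, with 13, 24.9, 17.8 and 3.06 RPKM in healthy and 2.18, 2.54, 4.51 and 3.65 RPKM in tumor libraries. Healthy library 4 thus fell within the tumor range (2-sided exact permutation p = 0.0857), while on counts outside the mitochondrial genome its 211 CPM (counts scaled per library to a common total) stood above the 69.5 to 109 of the tumors, and the log2 fold change was -2.67 (SE 0.20, edgeR adjusted p = 2.47e-05). Ugt2b34 still made up 71.9% of the glucuronosyltransferase sum in tumors. Ugt2b5, Ugt2b37 and Ugt2b38 were reduced further, by 5.53, 5.62 and 5.46 on the log2 scale.

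The Ugt1a genes, among them Ugt1a1 for bilirubin and Ugt1a6a and Ugt1a6b for phenols, use alternative first exons joined to a shared 3′ part on chromosome 1, and 52.1% to 80.2% of their transcript windows were shared with other genes. Values of single Ugt1a genes therefore depend on how shared reads were divided. Of the 9 genes, 6 were tested and all 6 were lower in tumors. Ugt1a6b (1:88103252 to 88219003) was read at 7.08, 22.5, 15.8 and 2.00 RPKM in healthy cells and at 0.322, 0, 0.498 and 0.270 RPKM in tumors (log2 fold change -5.87, SE 0.71), and Ugt1a5 at 1.21, 6.58, 9.04 and 0.688 RPKM against 0.0189, 0.0554, 0.0360 and 0.0595 RPKM (-6.92, SE 0.68). Summed over the locus, healthy libraries had 45.5, 171, 142 and 15.1 CPM and tumor libraries 1.98, 1.16, 3.17 and 2.64, a log2 fold change of -5.80 (SE 0.34, edgeR adjusted p = 1.16e-05) that does not rest on the split between members.

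**Figure D3:**
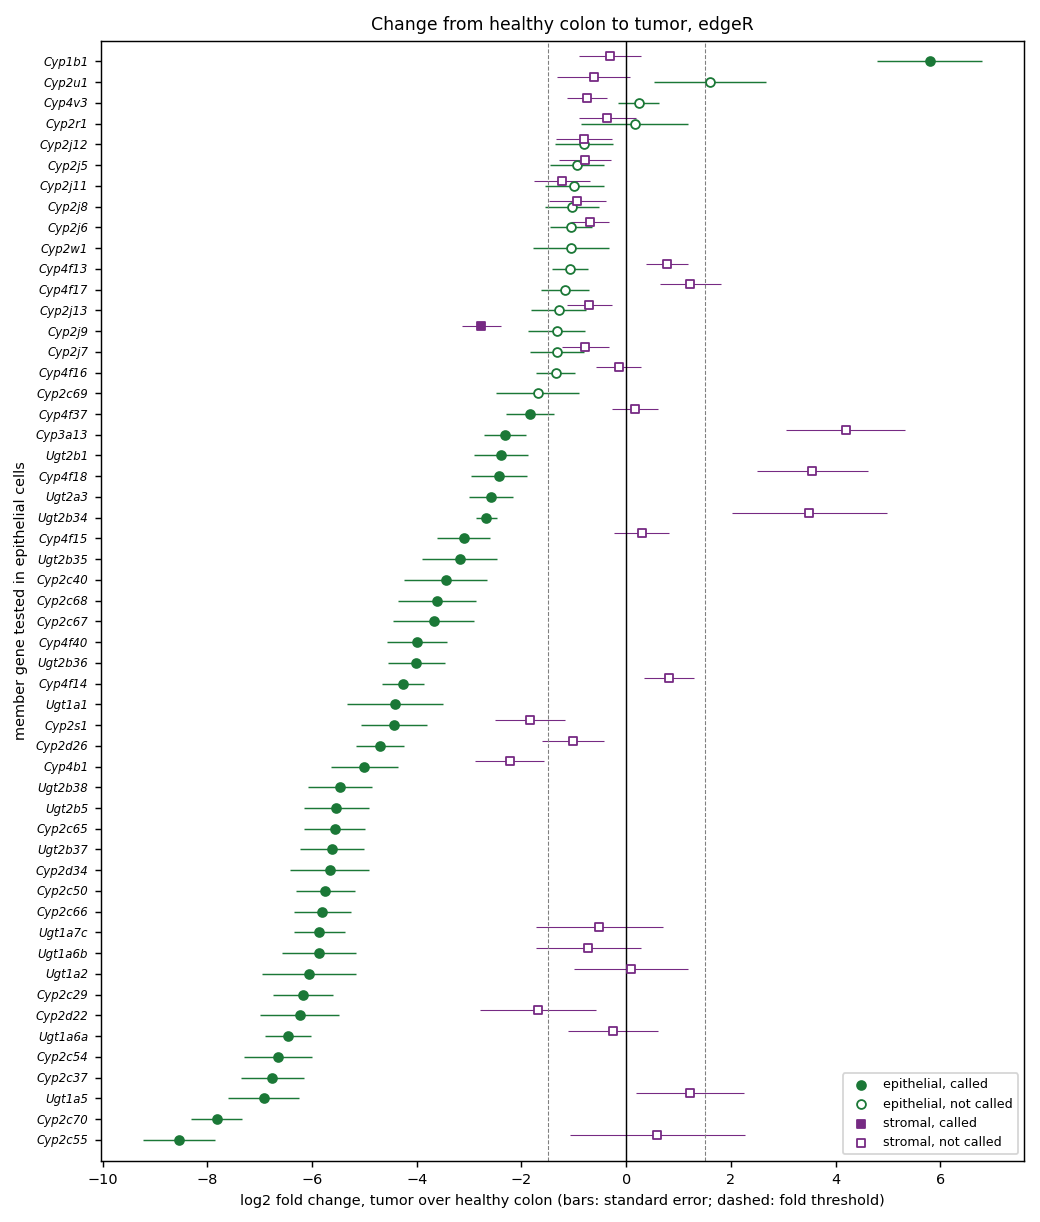
Log2 fold change of tumor over healthy colon (x axis, bars are standard errors) for the 53 members tested in epithelial cells (circles), with the stromal value of the same gene (squares) where it was tested. Filled symbols passed the threshold and dashed lines mark the fold threshold of 1.5. Epithelial values run from -8.54 for Cyp2c55 to 5.80 for Cyp1b1.

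Cyp1b1 (17:79701537 to 79715061, minus strand), an extrahepatic P450 that hydroxylates estradiol and is induced through the aryl hydrocarbon receptor, was the single member higher in tumor epithelial cells and was singled out after its values were seen. Tumor libraries gave 0.237, 0.119, 0.755 and 1.30 RPKM, and healthy ones 0.0162, 0.0067, 0 and 0.0028 RPKM, without overlap and with a log2 fold change of 5.80 (SE 1.0, edgeR adjusted p = 0.0021) that was 5.02 without tumor library 4. In healthy stroma its mean was 1.69 ± 1.01 RPKM, with libraries from 0.627 to 2.94 RPKM. In the same tumor epithelial libraries the sum of 5 endothelial markers was 4.2 to 4.6 RPKM, against 0 to 0.4 in healthy epithelial cells, and fibroblast sums were 0.7 to 2.4 against 0.1 to 2.6 RPKM. The part of these cells in the Cyp1b1 value was not tested.

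Markers of mature epithelium moved with the members. The summed level of 5 colonocyte markers was 1.9 to 23.1 RPKM in tumor epithelial libraries and 135 to 1014 RPKM in healthy ones, and that of 6 goblet cell markers was 16.7 to 73.1 against 60.8 to 1038 RPKM. Fewer mature cells and less RNA per cell cannot be told apart in sorted bulk samples, and the part of this shift in the members' fall was not tested.

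Genes around these enzymes were followed as lists. Of 12 xenobiotic receptors and regulators tested in epithelial cells, 9 were lower and 1 higher (median log2 fold change -2.15 over the list, -0.01 over all genes). Among all 16085 genes tested there, 7.88% were called lower and 7.52% higher. Hnf4a, which drives epithelial and liver genes, was at 4.98 ± 3.31 RPKM in tumors and 19.4 ± 11.9 RPKM in healthy cells (-2.53), and the retinoid X receptor Rxra (-1.61) and the glucocorticoid receptor Nr3c1 (-1.76) also fell. Ahr, the aryl hydrocarbon receptor, rose from 1.00 ± 0.719 to 6.19 ± 0.784 RPKM (2.17). None of 8 electron donors and heme synthesis genes passed, and their median was 0.10. As 15.4% of all genes passed, a count of 0 among 8 is near that share. For the supply of UDP-glucuronate, 3 of 5 genes were lower, namely Ugdh (-3.75), which makes it, the transporter Slc35d1 (-2.70) and Ugp2 (-1.63).

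Other conjugating and oxidizing enzymes shared the direction, where 7.88% of all genes tested were called lower and 7.52% higher. Of 7 genes for sulfation 5 were lower, with Sult1a1 at -6.11 and Papss2, which makes the sulfate donor, at -2.89. Glutathione transferases were lower for 14 of 19 tested, among them Gstm1 (-2.30), Gstp1 (-1.80) and Mgst1 (-2.09), while 14 of 19 hydrolases and other oxidases were lower and 2 higher, with Ces1d at -7.10, Maoa at -4.98 and Aldh1a1 at -4.29. Among 10 export and uptake transporters 5 were lower, such as Abcc3 (-4.86) and Abcb1a (-2.08), and Abcc4 was higher (3.16). Of 7 further P450 and glucuronosyltransferase genes outside the symbol rule 1 passed, the retinoic acid hydroxylase Cyp26a1, which was higher in tumors (0.147 ± 0.0293 RPKM) than in healthy cells (0.000943 ± 0.00159 RPKM).

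The same step from healthy colon to tumor was also tested in stromal cells. Of 33 members tested 1 passed as lower and none higher, where 8.4% of all 19081 genes passed (5.01% lower and 3.39% higher), and 7 members had an unadjusted edgeR p under 0.05. A count of 1 among 33 is near the share over all genes. Only 10 members had enough counts in both groups alone. The call was Cyp2j9, which was at 1.25, 0.980, 0.768 and 0.869 RPKM in healthy stroma and at 0.108, 0.0661, 0.135 and 0.140 RPKM in tumor stroma. The groups did not overlap and the log2 fold change was -2.77 (SE 0.37, edgeR adjusted p = 0.0053). Fibroblast markers, which were far lower in the same tumor libraries, moved with it, and their part was not tested. Ugt2b34 was at 3.27, 2.42, 0.506 and 0.300 RPKM in tumor stromal libraries 1 to 4 and Cyp3a13 at 1.39, 0.959, 0.322 and 0.340 RPKM, both highest in the 2 libraries with the highest epithelial marker sums, whereas Cyp4f18 was at 0.440, 0.0749, 3.14 and 2.28 RPKM, highest in the 2 libraries with the highest neutrophil sums. Their log2 fold changes of 3.50, 4.20 and 3.55 did not pass (edgeR adjusted p = 0.185, 0.051 and 0.069), and all 3 passed with DESeq2, which called 6 members in stroma. Cyp1b1 in stroma was read at a mean of 1.05 ± 0.546 RPKM in tumors and 1.69 ± 1.01 RPKM in healthy colon (log2 fold change -0.30, SE 0.59).

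Among the lists, stroma showed 5 of 17 glutathione transferases and 8 of 17 hydrolases and oxidases lower, where 5.01% of all 19081 genes were. Gstm1 was at -2.86, Ces1d at -7.66 and Fmo2 at -4.74, and Ugdh was lower as well (-3.26). Healthy stromal libraries differed widely for some of these genes, with means of 19.6 ± 17.7 RPKM for Ces1d and 10.4 ± 13.4 RPKM for Ugdh. None of 14 receptors, 8 electron donors and 6 sulfation genes passed. As 8.4% of all genes passed in stroma, counts of 0 in lists of this size are near that share. Outside the rule, the prostacyclin synthase Ptgis (-4.87) and the steroid hydroxylase Cyp21a1 (-4.58) were lower, and Abcc4 was higher (1.52). Fibroblast markers were far lower in the same tumor libraries, and the part of this shift in the changes of these list genes was not tested.

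To compare both cell types directly, the difference between the epithelial and the stromal change was tested. It passed for 37 of 59 members tested, 36 with the more negative change in epithelial cells, against 14.1% of 20901 genes (7.25% in that direction and 6.81% in the other). Of these calls 20 were members without enough counts for a test in both cell types, and 3 of them (Cyp2c37, Cyp2c54 and Cyp2c70) had at most 3 counts in all 8 stromal libraries, so that no stromal fold can be given for them. Among the 31 members tested in both cell types, 16 passed with the more negative change in epithelial cells and 1 with the other sign, against 8.02% and 6.41% of 15409 genes. This subset does not remove the effect of the filter, because a member could enter each test through healthy libraries alone. With at least 10 counts in every library 6 members were tested, and 3 passed, all with the more negative change in epithelial cells. The difference on the log2 scale was -9.13 for Cyp2c55, -6.14 for Ugt2b34 and 6.13 for Cyp1b1, and without healthy stromal library 4 it was -14.63 for Cyp2c55 and -9.72 for Ugt2b34. The value of -14.63 is not a measured fold, because the remaining healthy stromal libraries had at most 3 counts of Cyp2c55 each. When tumor stromal libraries 1 and 2 were left out 30 members passed, 25 of them shared with the 37, and Ugt2b34 was among those lost. No Cyp2j gene was in either set, which for so few genes is near the 14.1% share over all genes.

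Healthy epithelial and stromal cells were then set against each other, a comparison that shares its libraries with those above. Of 56 members tested, 39 were higher in epithelial cells and 5 in stroma, against 11.5% and 19.4% of all 18468 genes. Among the 14 members with enough counts in both cell types, 9 were higher in epithelial cells and 2 in stroma, and the matching share over all such genes is not given. The epithelial set held 11 Cyp2c, 8 Ugt1a and 6 Ugt2b genes and was led by Cyp2c55, at 0.0016, 0.0025, 0.0089 and 0.632 RPKM in the 4 stromal libraries and 701-fold higher on average in epithelial cells (log2 fold change 10.20, SE 1.83). That ratio rests on stromal library 4, since the other 3 had at most 3 counts each, and without it Cyp2c55 was at least 5085-fold higher. Cyp2c70 and Cyp2c37 had at most 3 counts in every stromal library and were at least 224-fold and at least 91.8-fold higher in epithelial cells. The stromal set was Cyp1b1 (-7.11), Cyp2t4 (-3.34), Cyp2d22 (-2.93), Cyp4v3 (-1.81) and Cyp2j9 (-1.77). Cyp2d22 was at 2.93, 3.11, 2.89 and 2.68 RPKM in healthy stroma and at 0.0949, 0.291, 0.420 and 0.0670 RPKM in epithelial cells. In tumor stroma it was at 0.0091, 0.0672, 2.06 and 0.894 RPKM, lowest in the libraries with high epithelial sums, and its change there did not pass (log2 fold change -1.68, edgeR adjusted p = 0.391).

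Myeloid cells carried a smaller set of members than healthy epithelial cells, and the Ugt1a genes were common to both. Median Ugt1a sums were 28.7 RPKM in healthy epithelial cells, and 32.9 and 22.4 RPKM in blood neutrophils and blood monocytes of healthy mice. In neutrophils Cyp4f18 (8:71988482 to 72009626, minus strand), which oxidizes leukotriene B4 at its omega end, made up 73.8% of the P450 sum in blood of healthy mice, 70.7% in blood of tumor-bearing mice and 71.4% in tumors. Blood neutrophils gave 14.7, 18.8, 15.3 and 16.8 RPKM in healthy and 14.6, 17.6, 12.2 and 14.5 RPKM in tumor-bearing mice, and tumor neutrophils gave 11.8, 16.8, 27.1 and 27.9 RPKM. The last 2 tumor libraries were above all blood libraries and the first below all of them, so that the groups overlapped and the change from blood to tumor did not pass (log2 fold change 0.59, SE 0.36, edgeR adjusted p = 0.289). Neutrophil marker sums in these 4 tumor libraries were 1904, 5945, 12237 and 11471 RPKM, lowest where Cyp4f18 was lowest.

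Of 22 members tested between tumor and blood neutrophils 2 passed, both higher in tumors, against 11.9% of 13674 genes in that direction and 4.41% in the other, and neither was among the 15 members with enough counts in both groups alone. Ugt2b34 was at 1.38, 1.87, 1.10 and 0.275 RPKM in tumor neutrophils and had at most 3 counts in every blood library, which makes it at least 104-fold higher. Cyp2u1, a fatty acid hydroxylase, was at 0.0614, 0.0512, 0.0578 and 0.301 RPKM and likewise at most at 3 counts in blood, at least 11.5-fold higher, or at least 5.56-fold without tumor library 4. Ugt2b34 is an abundant transcript of the epithelial cells described above, and epithelial marker sums were 163.5, 37.2, 36.4 and 12.3 RPKM in the tumor neutrophil libraries against 0.1 to 0.4 RPKM in blood. Library 4, with the lowest epithelial sum, had the lowest Ugt2b34 and the highest Cyp2u1, and the part of epithelial RNA was not tested. Both calls were kept when any tumor neutrophil library was left out.

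**Figure D4:**
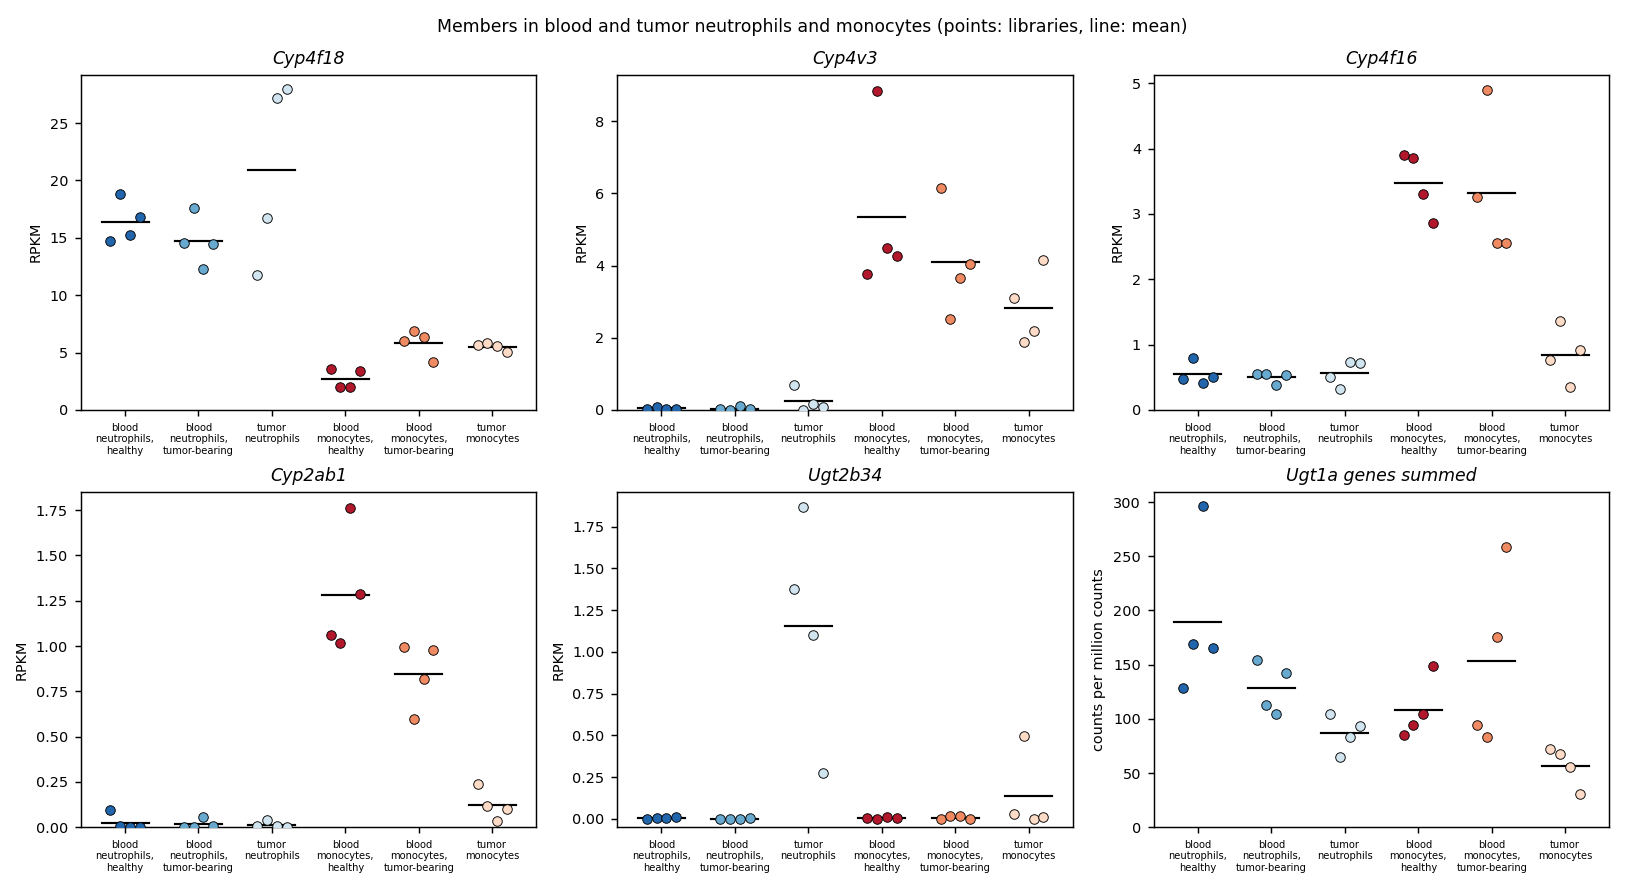
Levels of 5 members in RPKM and of the summed Ugt1a genes in CPM (linear axes) in the 4 libraries of each neutrophil and monocyte group, with lines for means. Group means of Cyp4f18 are highest in neutrophils and those of Cyp4v3, Cyp4f16 and Cyp2ab1 in blood monocytes, and Ugt2b34 is read in tumor neutrophils and in 1 tumor monocyte library at 0.496 RPKM.

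Besides Cyp4f18 and the Ugt1a genes, Cyp4v3 and Cyp4f16 had the highest mean levels in blood monocytes. Cyp4v3 (8:45304944 to 45333216, minus strand) was at 3.76, 8.85, 4.48 and 4.26 RPKM in blood monocytes of healthy mice, at 6.14, 2.51, 3.65 and 4.04 RPKM in those of tumor-bearing mice and at 3.10, 1.90, 2.18 and 4.16 RPKM in tumors, while no blood neutrophil library exceeded 0.105 RPKM and tumor neutrophil libraries reached 0.699 RPKM. Cyp4f16 was read in neutrophil libraries at 0.321 to 0.796 RPKM, which overlaps its range in tumor monocytes, and levels in neutrophils and monocytes were not tested against each other. From blood to tumor 2 of 20 members passed, both lower, against 3.89% of 15280 genes in that direction and 7.76% in the other. Cyp4f16 (17:32536558 to 32551798) went from 3.26, 4.90, 2.55 and 2.56 RPKM to 0.770, 1.36, 0.347 and 0.915 RPKM (log2 fold change -1.75, SE 0.41, edgeR adjusted p = 0.0155). Cyp2ab1 (16:20308387 to 20325404) went from 0.995, 0.598, 0.820 and 0.977 RPKM to 0.236, 0.116, 0.0354 and 0.102 RPKM (-2.54, SE 0.61, adjusted p = 0.0169 by edgeR). Neither gene overlapped between blood and tumor. Of the 2 calls 1 was lost without tumor library 2 or blood library 4 (Cyp2ab1) or without blood library 2 (Cyp4f16). Cyp4f17 reached an edgeR adjusted p of 0.033 at a log2 fold change of -1.48, just short of the fold threshold. The neutrophil and monocyte changes from blood to tumor were not shown to differ for any of 27 members, with 3 at an unadjusted p under 0.05 and the smallest adjusted p at 0.10 (edgeR, Cyp4f16), where 3.95% of 17465 genes passed (2.73% with the higher change in neutrophils and 1.23% with the lower). DESeq2 called 2 there, Cyp4f16 and Cyp4f37.

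The Ugt1a locus was also read in blood cells. Its summed counts were 128 to 296 CPM in blood neutrophils of healthy mice, 105 to 155 in those of tumor-bearing mice and 64.7 to 105 in tumor neutrophils, and 84.8 to 148, 83 to 258 and 30.9 to 72.2 in the corresponding monocyte groups. The fall from blood to tumor monocytes was -1.01 (SE 0.36) on the log2 scale and did not pass (edgeR adjusted p = 0.0852). Ugt1a6b and Ugt1a5 had the largest means of the locus in every myeloid group except tumor monocytes, where their order was reversed.

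Blood cells of tumor-bearing and healthy mice, which share the tumor-bearing blood libraries with the comparisons above, gave no call. Of 19 members tested in neutrophils none passed and none had an unadjusted edgeR p under 0.05, against 4.01% of 13360 genes called (1.79% higher and 2.22% lower), and limma-voom and DESeq2 also called none. With tumor-bearing library 3 or 4 left out 1 member was called, Cyp2s1, which had too few counts to be tested with all libraries. In monocytes none of 20 passed with edgeR, limma-voom or DESeq2, and 1 had an unadjusted edgeR p under 0.05, against 0.209% of 15313 genes called (0.0914% higher and 0.118% lower). That gene was Cyp4f18, at 6.05, 6.86, 6.36 and 4.14 RPKM in tumor-bearing and 3.57, 1.99, 1.97 and 3.39 RPKM in healthy mice. The groups did not overlap, mean levels were 5.85 ± 1.19 and 2.73 ± 0.87 RPKM (edgeR adjusted p = 0.169), and the 2-sided exact permutation p of 0.0286 is the smallest that 4 against 4 libraries can give.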

How the data were processed

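RNA of 200000 to 500000 sorted cells per library was amplified (NuGEN Ovation V2) and sequenced, and per the labels reads were aligned with Bowtie2 to mm10 (GRCm38). The deposited tables hold expected counts per gene, which the authors made from the alignments with shares of reads given to several genes (99.6% of nonzero values were not whole), and RPKM, which the authors computed per transcript length and library. Gene types and symbols were taken from GENCODE M21, and promoters from the RefSeq GRCm38.p6 table.

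Expected counts were rounded and tested per comparison with edgeR 4.0.16 (R 4.3.3; TMM, filterByExpr, robust quasi-likelihood fit), with Benjamini-Hochberg adjustment over all genes tested. Limma 3.58.1 and DESeq2 1.42.0 served as alternatives, and the fits were tested on simulated data. RPKM gives levels, and exact permutation tests on RPKM have 70 arrangements of 4 against 4 libraries. A fold against a group with at most 3 counts in every library is a lower bound, the high group's mean over the mean RPKM worth of 3 counts in the low group. The floor covers counting error only, and reads carried no molecular identifiers. RPKM per count did not follow the total counts alone, so counts scaled to the total outside the mitochondrial genome were used as an alternative scale.

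Named members were those called in a comparison or with a group mean of at least 1 RPKM, with library values for at most the 8 most abundant and the 4 most changed per comparison. Cyp2c69 and Cyp2r1, and the library values of Cyp1b1, Cyp3a13 and Cyp2d22, were added after their values were seen. Other genes were the called members of the lists in the colon comparisons, at most 4 per list by mean RPKM. Members, gene lists, markers and motifs were chosen with earlier results of these data known. Library names hold mouse numbers, by which the libraries of a group come from different mice and some mice appear in several groups, but no label describes the replicates further, so p-values measure the spread between libraries. Tumor stromal libraries 3 and 4 both carry the label replicate 3.

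Members that share sequence were also summed into 13 sets of 36 genes after the data were seen. Transcript windows of 50 bases were compared with all annotated transcripts, and 11 members share none, while 38 share at least 20%.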

Additional observations from a re-analysis of the deposited data

Results flagged for a closer look

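Within groups, 43 sets of 4 libraries were examined for a library far from the rest (Dixon's ratio of the gap to the range), and 9 were found. For independent and normally distributed values chance gives about 1 of 20. RPKM near the floor need not be so distributed and genes of the same library are not independent, so the count of 9 cannot be set against that rate. Healthy stromal library 4 stood above its group for 6 epithelial members, with 0.632 RPKM of Cyp2c55, 0.188 of Cyp2c65, 0.168 of Cyp2c66, 0.0117 of Cyp2c37, 0.0211 of Cyp2c54 and 0.703 of Ugt2b34. The same library had a goblet marker sum of 36.0 RPKM, against at most 0.645 RPKM in the other healthy stromal libraries, and the part of epithelial RNA in these values was not tested. Without it 5 members were called between tumor and healthy stroma in place of 1, the added ones being Cyp2c55, Cyp3a13, Cyp4b1 and Ugt2b34. Healthy epithelial library 4 stood below its group for Cyp2j9 (0.0183 RPKM), tumor neutrophil library 4 above its group for Cyp2u1 (0.301 RPKM), and blood neutrophil library 4 of tumor-bearing mice above its group for Ugt2b34 (0.00404 RPKM, at most 3 counts).

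The change from healthy colon to tumor differed between epithelial and stromal cells for 37 members (edgeR interaction term), 17 of which were tested in both cell types. The epithelial minus stromal difference on the log2 scale is given for the described members that were tested in both cell types, and was -9.13 for Cyp2c55, -8.16 for Ugt1a5, -6.14 for Ugt2b34, -5.98 for Cyp4f18 and -5.16 for Ugt1a6b, and it was 6.13 for Cyp1b1. With a term for each mouse that gave several libraries, Ugt1a6b no longer passed (-3.97, edgeR adjusted p = 0.0998) and the others named did. Tumor stromal libraries differed among themselves in their epithelial and neutrophil markers, and these moved with the stromal values of Ugt2b34 and Cyp4f18. The summed Ugt1a genes, which include Ugt1a5 and Ugt1a6b, were at 1.71, 0.875, 17.1 and 41.4 CPM in tumor stromal libraries 1 to 4. They were highest in libraries 3 and 4, which had the highest neutrophil marker sums. The part of other cells in these differences was not tested.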

How the results depend on the processing

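No called change turned its direction under any alternative. In epithelial cells 37 calls became 5 with at least 10 counts in every library, where the 32 lost were no longer tested, and 8 on log2(RPKM + 1), and they ran from 37 to 45 when a library was left out. Of the 37 calls, 8 were kept under every alternative that tested them. Cyp3a13, Ugt2a3, Ugt2b1 and Ugt2b34 were tested and lost with all 40 libraries in 1 model, and they were also lost on log2(RPKM + 0.1). In stroma 1 call became 2 with limma-voom, 6 with DESeq2, 6 with all 40 libraries in 1 model, 0 on log2(RPKM + 1), 3 on log2(RPKM + 0.1) and 2 without tumor libraries 1 and 2, and 1 to 5 with a library left out. Healthy epithelial against stromal calls went from 44 to 11 with at least 10 counts and 9 on log2(RPKM + 1), and 43 to 51 with a library left out. Neutrophil calls went from 2 to 7 without filter, 0 with at least 10 counts, 22 with all 40 libraries, 0 on log2(RPKM + 1) and 1 on log2(RPKM + 0.1), and 2 to 3 with a library left out (Cyp1b1 added without tumor library 3 or blood library 3). Monocyte calls went from 2 to 4 with limma-voom, 12 with all 40 libraries, 0 on log2(RPKM + 1) and 5 on log2(RPKM + 0.1), and 1 to 3 with a library left out. Blood neutrophils gave 1 call (Cyp2s1) with all 40 libraries and 0 to 1 with a library left out, and blood monocytes 0 throughout. The 37 calls for the difference between epithelial and stromal change became 3 with at least 10 counts and 8 on log2(RPKM + 1), and 30 to 43 with a library left out. That between neutrophils and monocytes, with 0 calls, gave 2 with DESeq2, 1 with at least 10 counts, 2 with all 40 libraries and 2 on log2(RPKM + 0.1), and 0 to 1 with a library left out (Ugt2b34 without tumor monocyte library 2). Beyond the tests that were lost to filters, the cause was not tested.

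The replicate numbers are not mouse numbers, and same-numbered deviations correlated between -0.256 and 0.251. With the replicate block the calls were 37 in epithelial cells, 42 between healthy cell types, 30 for the epithelial against stromal difference, 2 in neutrophils, 2 in monocytes, 1 in stroma and 0 in the others. By the library names, mice were shared within 5 comparisons, 1 mouse each in that of healthy cell types, neutrophils and monocytes, 3 mice in the epithelial against stromal difference and 6 in the neutrophil against monocyte difference. Deviations of their libraries correlated between -0.14 and 0.0993, and a term for each shared mouse, added after the data were seen, gave 44, 2, 2, 33 and 0 calls.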
